A study of Homo sapiens with 14 samples.

Results

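The genes described here encode the inhibitors of cyclin-dependent kinases (CDKs) and the pocket proteins of the retinoblastoma family in breast cancer cells. They were chosen by gene name from 1 table of 19410 genes, and 7 of the 9 genes named were analysed. These are CDKN1A, CDKN1B, and CDKN1C of the Cip/Kip family, CDKN2C and CDKN2D of the INK4 family, and the pocket protein genes RB1 and RBL1. CDKN2A and CDKN2B were not analysed here, so the parental line could not be checked for their known loss.

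CDKs bound to cyclins drive cells from G1 phase into S phase by phosphorylating RB1 and its relatives, which otherwise hold E2F transcription factors inactive and keep the genes of DNA replication silent. INK4 proteins bind CDK4 and CDK6 and displace D-type cyclins, while Cip/Kip proteins bind complexes of cyclin and CDK and chiefly inhibit CDK2. Many cancers lose this brake, and in MDA-MB-231 cells the INK4 locus on chromosome arm 9p is known to be deleted.

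RNA-Seq was performed by the authors on MDA-MB-231, an established human triple-negative breast cancer (TNBC) cell line, and on 6 CRISPR/Cas9 derivatives of it. The 7 conditions were the untreated parental line and an untreated KO1 and KO2 line for SAP30 (SAP30-KO) and for MLL1 (MLL1-KO), with a DKO1 and DKO2 line for SIN3A and SIN3B together (labelled SIN3A+SIN3B-DKO, here SIN3A/3B-DKO), at 2 libraries each. SAP30 is a subunit of the SIN3 corepressor complex, SIN3A and SIN3B are its scaffolds, and MLL1 is a histone H3 lysine methyltransferase encoded by KMT2A. Each edited line was a mixture of several knockout cells that had been picked and expanded after puromycin selection, so a line is not 1 clone. The methods count biological samples or experiments without saying whether the 2 libraries of a condition came from separate cultures, so p-values here measure the spread between these libraries, which may be technical.

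Values are given as TPM, the share of a library's transcripts after scaling for gene length, which add up to the same total in each library, so that genes can be compared within a library while differences in total RNA cannot be seen. The libraries held from 18415036 to 23162682 recovered reads. A gene was called higher or lower when its Benjamini-Hochberg adjusted p from limma was under 0.05 and its change was at least 1.5-fold, among 13540 genes tested on log2(TPM + 0.5), a scale on which changes of genes with few transcripts appear smaller. The 5 mesenchymal markers of this line, VIM, CD44, CAV1, AXL, and ZEB1, were at 1 TPM or more in all 14 libraries, and leukocyte markers summed to 0.603 TPM at most. SAP30 RNA fell from 78.9 and 82.8 TPM in parental to between 2.75 and 4.96 in the SAP30-KO libraries. KMT2A RNA, listed as MLL, fell from 56.7 and 49.0 TPM to between 15.8 and 27.7 in the MLL1-KO libraries, and it was also lower in SAP30-KO, at 23.0 to 35.4. Genes were also fitted with their neighbours subtracted, which here means the running median of 51 genes, the gene itself among them, taken in each library. The neighbour medians printed are those of the fold changes, so the values need not add up. With its neighbours subtracted, the log2 fold change of MLL was -0.70 in MLL1-KO1, where it was called, and -0.54 in MLL1-KO2. In the SAP30-KO lines, whose neighbours had medians of -0.91 and -0.85, it was -0.10 and 0.26 and was not called. In the libraries labelled SIN3A/3B-DKO, SIN3B RNA was 43.5 to 50.2 TPM against 75.1 and 77.4 in parental. SIN3A RNA was higher than in parental, at 55.1 to 62.5 against 43.1 and 45.4, so the SIN3A edit could not be seen in its RNA level. The paper reports checking its knockout lines for the protein by immunoblot, which RNA level does not measure.

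In the 2 parental libraries, the genes ranked RB1, CDKN2C, CDKN2D, CDKN1B, RBL1, CDKN1A, and CDKN1C by mean level, from 103 to 6.87 TPM. The ranges of CDKN1B and RBL1 overlapped, and those of the other neighbours in this order did not. CDKN1A had the highest level of the 7 genes in both MLL1-KO lines, and CDKN1C had the lowest level of the 7 in all conditions except MLL1-KO2, where CDKN1B had the lowest. Across all 14 libraries the highest level was 12.96 times the lowest for CDKN1C, 4.17 times for CDKN1A, 2.86 times for CDKN2C, 2.12 times for CDKN1B, and 1.85 times for RB1, against 1.44 times for CDKN2D and 1.41 times for RBL1.

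**Figure D1:**
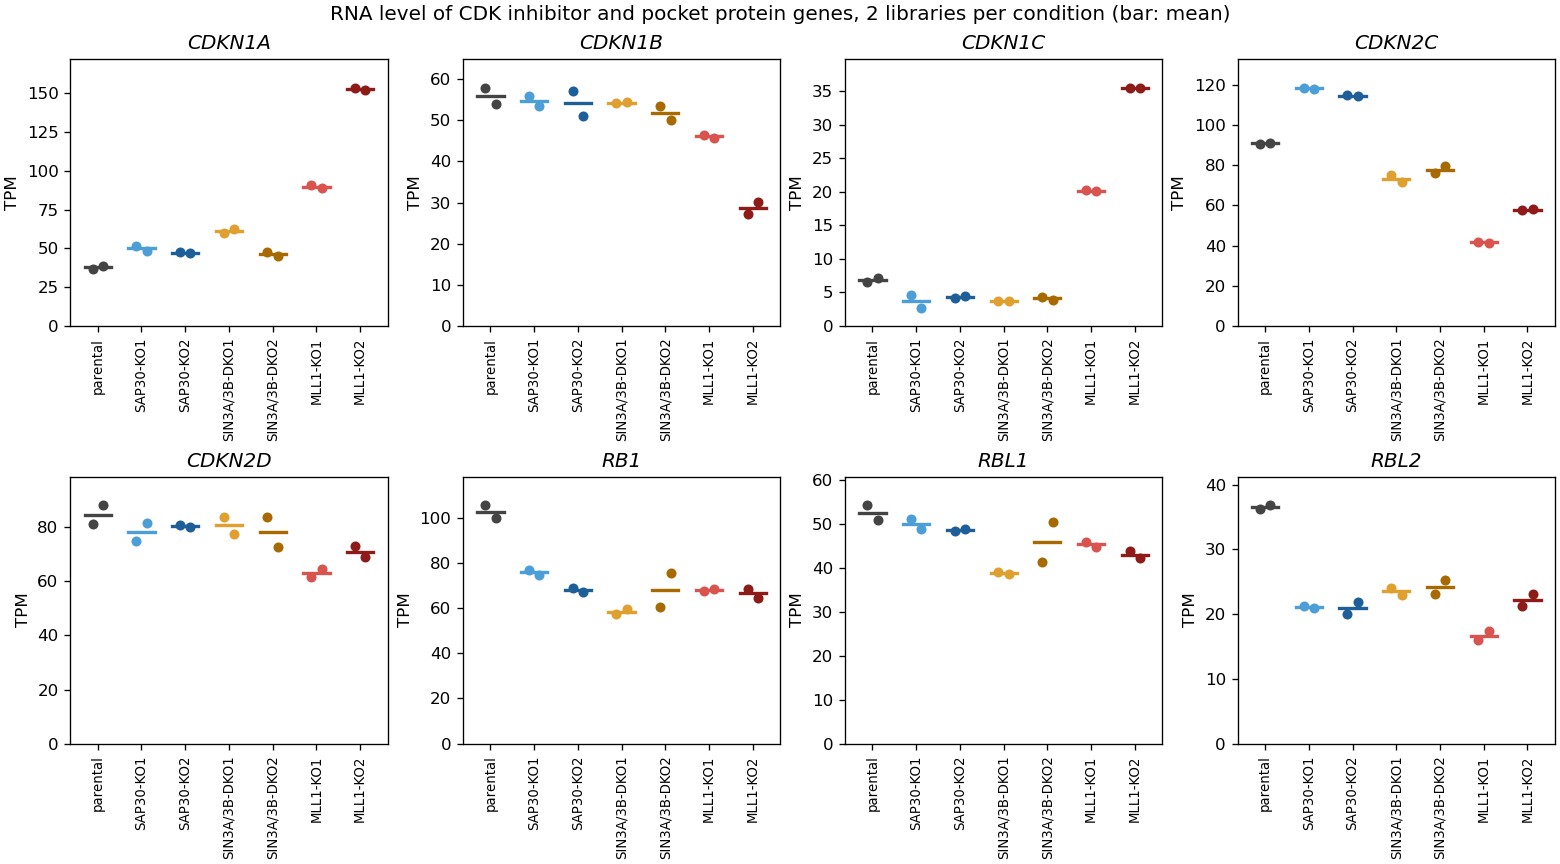
RNA level in TPM (vertical axis, starting at 0) of the 7 genes and of RBL2, a further pocket protein gene, in each of the 7 conditions. Points are the 2 libraries of a condition and bars their mean. CDKN1A and CDKN1C stood highest in the MLL1-KO lines, CDKN2C was highest in SAP30-KO and lowest in MLL1-KO, and RB1 and RBL2 were highest in parental.

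CDKN1A and CDKN1C were higher in both MLL1-KO lines, CDKN2C was lower in both, and RB1 was lower in 5 of the 6 edited lines. CDKN1C was lower in both lines of SAP30-KO and of SIN3A/3B-DKO. Of the 7 genes, 1 was called in SAP30-KO1 and 2 in SAP30-KO2, where 15.7% and 15.6% of all genes tested were called in either direction. In SIN3A/3B-DKO1, 3 were called and in SIN3A/3B-DKO2 2, against 16.4% and 13.6% of all genes. In MLL1-KO1 4 were called and in MLL1-KO2 5, against 23.2% and 25.2% of all genes. The 7 genes had a median log2 fold change of -0.07, -0.07, -0.31, -0.20, -0.28, and -0.28 in the 6 lines in this order, and all genes tested had one of 0.03, 0.01, 0, 0.01, -0.09, and -0.04. All 6 lines were compared with the same 2 parental libraries. These libraries include no line carrying a scrambled guide. A change shared by all 6 lines therefore cannot be told apart from an effect of editing, selection, and expansion as such. In MLL1-KO1, 70.3% of the genes called were lower, and 51.6% were under quantile normalization. In MLL1-KO2 these shares were 59.3% and 48.4%. Quantile normalization moved the median log2 fold change of all genes by 0.13 and 0.06 in these lines. The 7 genes kept their direction there under it, though the RB1 call in MLL1-KO1 was lost (-0.51). Median-ratio scaling took the RB1 call from both MLL1-KO1 and MLL1-KO2, at -0.49 and -0.57.

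**Figure D2:**
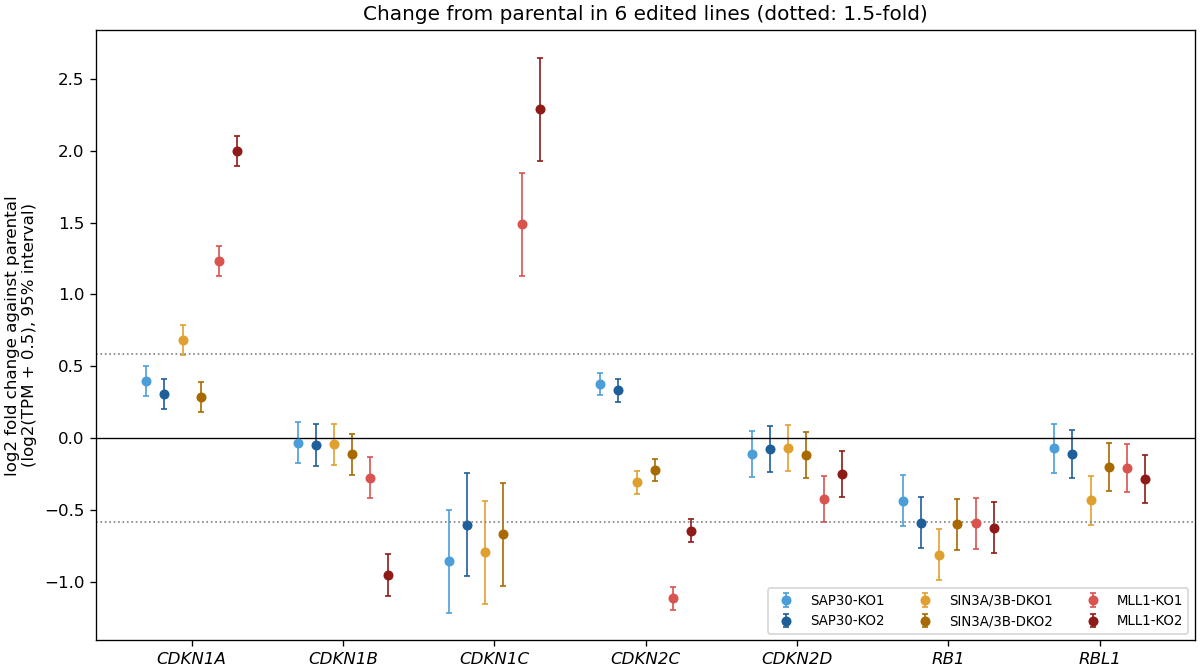
Log2 fold change against parental on the scale of log2(TPM + 0.5) (vertical axis) of the 7 genes in the 6 edited lines, with 95% intervals from limma. Dotted lines mark 1.5-fold. The MLL1-KO lines held the largest changes in both directions, from -1.11 for CDKN2C in MLL1-KO1 to 2.29 for CDKN1C in MLL1-KO2.

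CDKN1A encodes p21, the Cip/Kip inhibitor that DNA damage, TGF-beta, and other signals induce. It lies on chromosome 6 of GRCh37 (chr6:36644237-36655114, plus strand). In parental, the libraries held 36.8 and 39.0 TPM of CDKN1A RNA, SAP30-KO1 held 51.9 and 48.3, and SAP30-KO2 47.4 and 46.9. The level was 60.2 and 62.2 in SIN3A/3B-DKO1 while it was 47.9 and 44.9 in SIN3A/3B-DKO2, and MLL1-KO1 held 90.9 and 88.9 where MLL1-KO2 held 154 and 152. All 12 libraries of edited lines lay above both parental libraries, and the MLL1-KO libraries lay above all others. CDKN1A rose 2.37-fold in MLL1-KO1 and 4.03-fold in MLL1-KO2 by the ratio of mean TPM, or by 1.23 and 1.998 on the log2 scale (limma, standard error 0.05, adjusted p = 3.81e-09 and 7.61e-11). It was also called higher in SIN3A/3B-DKO1, at 0.68 (adjusted p = 7.98e-07 from limma). Its log2 fold changes of 0.40 and 0.31 in the SAP30-KO lines and 0.29 in SIN3A/3B-DKO2 had adjusted p of at most 4.77e-04 from limma but fell short of 1.5-fold. The share of all genes called higher in the 6 lines was 7.8%, 7.44%, 7.76%, 6%, 6.89%, and 10.2%, in the order SAP30-KO, SIN3A/3B-DKO, MLL1-KO. Taken as the mean of both lines, MLL1-KO exceeded SAP30-KO by 1.26 and SIN3A/3B-DKO by 1.13 on the log2 scale (adjusted p = 1.1e-10 and 2.3e-10 from limma). In this and all later comparisons of genotypes, p-values rest on the spread between libraries of the same line. The spread between the 2 lines of a genotype does not enter them. The RNA gene DINOL overlaps CDKN1A on the other strand, and the strand setting of the counting is not given in the sources used here.

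The bases before the start sites of 3 of these genes are shown because CDKN1A rose while CDKN1B and CDKN2C fell in MLL1-KO2, and their promoters can be set side by side. They come from RefSeq on GRCh38.p14 and were found once each, base for base, in GRCh37, whose coordinates are given (chr6:36646241-36646490, chr12:12870052-12870301, and chr1:51434128-51434377, all on the plus strand). Each is 250 bases long, reads 5′ to 3′, and ends at the base before the start. For CDKN2C, RefSeq gave 3 starts, and the one with the most GC box matches is shown. Capitals mark matches on either strand to the GC box GGGCGG, which Sp1 family factors bind, and to the CCAAT box.
CDKN1A: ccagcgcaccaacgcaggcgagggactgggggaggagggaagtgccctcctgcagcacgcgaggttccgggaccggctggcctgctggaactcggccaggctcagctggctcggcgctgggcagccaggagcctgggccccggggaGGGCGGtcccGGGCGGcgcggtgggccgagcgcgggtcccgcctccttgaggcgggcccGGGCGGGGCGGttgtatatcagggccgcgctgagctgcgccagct
CDKN1B: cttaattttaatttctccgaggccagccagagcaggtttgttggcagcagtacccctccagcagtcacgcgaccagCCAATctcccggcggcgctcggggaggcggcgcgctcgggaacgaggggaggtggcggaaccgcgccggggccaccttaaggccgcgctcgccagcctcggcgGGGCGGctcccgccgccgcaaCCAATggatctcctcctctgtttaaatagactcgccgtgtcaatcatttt
CDKN2C: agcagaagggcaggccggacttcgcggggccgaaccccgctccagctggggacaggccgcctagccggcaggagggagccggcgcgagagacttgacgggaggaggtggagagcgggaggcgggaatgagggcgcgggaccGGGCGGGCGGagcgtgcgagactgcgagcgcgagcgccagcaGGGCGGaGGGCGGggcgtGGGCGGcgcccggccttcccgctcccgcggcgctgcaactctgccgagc

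The CDKN1A sequence held 4 GC box matches, 2 of which overlap, and 76.4% of its bases were G or C. The CDKN2C sequence held 5, 2 of them overlapping, with 77.2% G or C. The CDKN1B sequence held 1 GC box and 2 CCAAT boxes and was 64.4% G or C. In the sequences shown, CDKN1A, which rose in the MLL1-KO lines, and CDKN2C, which fell, both held several GC box matches. The CDKN2C start was chosen for its matches, however, so this was set by the choice. The other CDKN2C starts held 0 and 1 in windows of 300 bases. Among 35116 RefSeq promoters of 300 bases, from 250 before to 50 after the start, 45.0% held a GC box match and 34.6% a CCAAT match. The letters TATAAA, found in 11.5% of those promoters, were absent from all 3 windows, as were the E2F letters TTTCCCGC, TTTCGCGC, TTTGCCGC, and TTTGGCGC, found in 3.31%. In the window of 300 bases, RBL1 held 2 of these E2F letters, at 26 and 16 bases before its start. RefSeq gave promoters for 6 of the 7 genes, all but CDKN1C. The only one for RB1 (chr13:49050336-49050635) lies inside the gene, which begins at 48877880. The bases before the beginning of RB1 were therefore not searched.

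CDKN1B encodes p27, the Cip/Kip inhibitor that accumulates in resting cells and is destroyed through SKP2 as cells enter S phase. It lies on chromosome 12 (chr12:12838432-12875303, plus strand). Parental libraries held 57.9 and 53.9 TPM of CDKN1B RNA, SAP30-KO1 held 55.9 and 53.5, and SAP30-KO2 57.1 and 51.1. The level was 54.2 and 54.3 in SIN3A/3B-DKO1 while it was 53.4 and 50.02 in SIN3A/3B-DKO2, and MLL1-KO1 held 46.5 and 45.7 where MLL1-KO2 held 27.3 and 30.1. The 4 MLL1-KO libraries were below all others, and those of SAP30-KO and SIN3A/3B-DKO overlapped with parental or lay just below. CDKN1B fell by 0.95 on the log2 scale in MLL1-KO2 (standard error 0.07, adjusted p = 2.88e-07 from limma), to 0.513 of its parental level. In MLL1-KO1 the log2 fold change was -0.28 (adjusted p = 0.00365 from limma), short of 1.5-fold. In the SAP30-KO and SIN3A/3B-DKO lines the log2 fold changes lay between -0.11 and -0.03, with 95% intervals that together ran from -0.26 to 0.11.

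The 51 neighbouring genes around CDKN1B differed between the MLL1-KO lines, with a median log2 fold change of 0.31 in MLL1-KO1 but -0.18 in MLL1-KO2. Once they were subtracted, CDKN1B was called lower in both, at -0.62 and -0.90 (adjusted p = 7.7e-06 and 2.71e-07 from limma). Of its direct neighbours, APOLD1 was lower in both lines, at -0.68 and -0.999. GPR19, which overlaps CDKN1B on the other strand, had log2 fold changes of -0.10 and -0.58, was not called, and never exceeded 2.44 TPM.

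CDKN1C encodes p57, the Cip/Kip inhibitor of an imprinted region, known for its role in growth control during development. It lies on chromosome 11 (chr11:2904443-2907005, minus strand). Parental libraries held 6.63 and 7.10 TPM of CDKN1C RNA, SAP30-KO1 held 4.61 and 2.74, and SAP30-KO2 4.22 and 4.49. The level was 3.78 and 3.71 in SIN3A/3B-DKO1 while it was 4.37 and 3.90 in SIN3A/3B-DKO2, and MLL1-KO1 held 20.3 and 20.1 where MLL1-KO2 held 35.5 and 35.5. The libraries fell into separate ranges, with the 8 of SAP30-KO and SIN3A/3B-DKO below parental and the 4 MLL1-KO libraries above. These values rest on 92 and 96 reads in parental, on 41 to 71 in those of SAP30-KO and SIN3A/3B-DKO, and on 311 to 492 in MLL1-KO. CDKN1C rose 2.94-fold in MLL1-KO1 and 5.17-fold in MLL1-KO2, or by 1.49 and 2.29 on the log2 scale (limma, standard error 0.16, adjusted p = 1.36e-05 and 3.75e-07). It fell by 0.86 and 0.60 in the SAP30-KO lines and by 0.79 and 0.67 in the SIN3A/3B-DKO lines on the log2 scale (largest adjusted p = 0.00949 from limma). The call in SAP30-KO1 was lost when only its libraries and the parental ones were fitted (adjusted p = 0.0515 from limma) and without SAP30-KO1 replicate 2 (log2 fold change -0.53). That in SAP30-KO2 was lost with a pseudocount of 1 (-0.55), without parental replicate 2 (-0.56), and without SAP30-KO2 replicate 1 (-0.56).

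MLL1-KO exceeded SAP30-KO and SIN3A/3B-DKO in CDKN1C by 2.62 on the log2 scale each (adjusted p = 5.33e-09 and 4.88e-09 from limma), the largest difference between genotypes for any of the 7 genes. SAP30-KO and SIN3A/3B-DKO differed from each other in CDKN1C by less than 0.01, with a 95% interval from -0.26 to 0.25. The neighbours of CDKN1C had medians between -0.04 and 0.11 in the 6 lines, and it was called in all 6 with these subtracted.

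CDKN2C encodes p18, an INK4 inhibitor that is expressed in many tissues and is itself known as an E2F target. It lies on chromosome 1 (chr1:51426417-51440306, plus strand). Parental libraries held 90.6 and 91.0 TPM of CDKN2C RNA, SAP30-KO1 held 119 and 118, and SAP30-KO2 115 and 114. The level was 74.9 and 71.6 in SIN3A/3B-DKO1 while it was 75.8 and 79.7 in SIN3A/3B-DKO2, and MLL1-KO1 held 41.8 and 41.5 where MLL1-KO2 held 57.6 and 58.3. No 2 genotypes overlapped, and the replicates of a condition differed far less than the genotypes did. CDKN2C fell by 1.11 and 0.64 on the log2 scale in MLL1-KO1 and MLL1-KO2 (standard error 0.04, adjusted p = 9.33e-10 and 4.8e-08 from limma), to 0.459 and 0.638 of the parental level. The SAP30-KO lines had log2 fold changes of 0.38 and 0.33, and the SIN3A/3B-DKO lines of -0.31 and -0.22. All 4 had adjusted p of at most 3.75e-04 from limma and were short of 1.5-fold.

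Tested directly, CDKN2C was lower in SIN3A/3B-DKO than in SAP30-KO by 0.62 on the log2 scale (adjusted p = 1.63e-08 from limma). It was the only gene of the 7 called between these genotypes, where 7.47% of all genes were called. The neighbours of CDKN2C were shifted too, with a median of 0.46 in each SAP30-KO line and of 0.13 and 0.10 in the SIN3A/3B-DKO lines. With these subtracted, the values in SAP30-KO turned to -0.10 and -0.07 (adjusted p = 0.057 and 0.138 from limma). The difference between SIN3A/3B-DKO and SAP30-KO then narrowed to -0.32, short of 1.5-fold. In MLL1-KO the neighbours had medians of 0.04 and 0.02, and CDKN2C was still called lower, at -1.16 and -0.69. RNF11, the next gene along the chromosome, had log2 fold changes of 0.47 and 0.37 in SAP30-KO, while FAF1 before it had 0.18 and 0.09. FAF1 was at -0.26 and -0.47 in MLL1-KO and was not called.

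CDKN2D encodes p19, the remaining INK4 inhibitor analysed, and lies on chromosome 19 (chr19:10677136-10679735, minus strand). Parental libraries held 81.2 and 88.2 TPM of CDKN2D RNA, SAP30-KO1 held 74.9 and 81.7, and SAP30-KO2 80.9 and 79.9. The level was 83.7 and 77.7 in SIN3A/3B-DKO1 while it was 83.7 and 72.8 in SIN3A/3B-DKO2, and MLL1-KO1 held 61.5 and 64.7 where MLL1-KO2 held 73.1 and 68.9. It was not called in any line, and the SAP30-KO1 and both SIN3A/3B-DKO ranges overlapped with parental. The log2 fold changes were -0.42 in MLL1-KO1 and -0.25 in MLL1-KO2 (standard error 0.07, adjusted p = 4.38e-04 and 0.0102 from limma) and between -0.12 and -0.07 in the other lines.

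RB1 encodes the retinoblastoma protein, the pocket protein that binds the activating E2F factors, and lies on chromosome 13 (chr13:48877880-49173572, plus strand). Parental libraries held 106 and 99.96 TPM of RB1 RNA, SAP30-KO1 held 77.1 and 74.6, and SAP30-KO2 69.0 and 67.4. The level was 57.2 and 59.6 in SIN3A/3B-DKO1 while it was 60.6 and 75.6 in SIN3A/3B-DKO2, and MLL1-KO1 held 67.8 and 68.3 where MLL1-KO2 held 68.6 and 64.7. All 12 libraries of edited lines lay below both parental libraries, with no overlap. RB1 was lower than in parental in 5 lines, by 0.59 in SAP30-KO2, 0.81 in SIN3A/3B-DKO1, 0.60 in SIN3A/3B-DKO2, 0.59 in MLL1-KO1, and 0.62 in MLL1-KO2 on the log2 scale (standard error 0.08, largest adjusted p = 1.17e-04 from limma). In SAP30-KO1 the log2 fold change was -0.44 (adjusted p = 9.7e-04 from limma), short of 1.5-fold. The share of all genes called lower in the 6 lines was 7.86%, 8.12%, 8.66%, 7.56%, 16.3%, and 14.9%. Apart from SIN3A/3B-DKO1, these values lay close to the 1.5-fold minimum, and 4 of the 5 calls were lost without parental replicate 1, with log2 fold changes from -0.58 to -0.55. Without SIN3A/3B-DKO2 replicate 1, the value in SIN3A/3B-DKO2 was -0.44. That in SAP30-KO2 was -0.57 without SAP30-KO2 replicate 2, and that in MLL1-KO2 was -0.58 without MLL1-KO2 replicate 2. Between genotypes, RB1 was not called. SIN3A/3B-DKO lay below SAP30-KO by 0.19 on the log2 scale (adjusted p = 0.0166 from limma), and MLL1-KO differed from SIN3A/3B-DKO by 0.10, with a 95% interval from -0.03 to 0.22. Counted reads in place of TPM (voom) also took the RB1 call from SAP30-KO2, SIN3A/3B-DKO2, and MLL1-KO1, at -0.58, -0.58, and -0.53.

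The median log2 fold change of the 51 neighbours of RB1 was below 0 too, at -0.18 and -0.27 in the SAP30-KO lines, -0.33 and -0.23 in the SIN3A/3B-DKO lines, and -0.37 and -0.42 in the MLL1-KO lines. With these subtracted, RB1 was at -0.24, -0.33, -0.47, -0.36, -0.23, and -0.24 in the 6 lines (adjusted p between 7.15e-05 and 0.00656 from limma) and was called in 0 of them. ITM2B, which lies directly before RB1, was called lower in both SIN3A/3B-DKO and both MLL1-KO lines, by 0.77, 0.69, 0.74, and 0.59. RCBTB2, directly after RB1 and overlapping it on the other strand, was called lower in SIN3A/3B-DKO1 alone, by 0.71, and lay between -0.41 and -0.08 in the other 5 lines. LPAR6, a gene within an intron of RB1 on the other strand, had at most 1 read in any library.

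RBL1 encodes p107, a pocket protein that binds the repressive E2F4 and E2F5, and lies on chromosome 20 (chr20:35624752-35724400, minus strand). Parental libraries held 54.3 and 50.8 TPM of RBL1 RNA, SAP30-KO1 held 51.03 and 48.8, and SAP30-KO2 48.5 and 48.7. The level was 38.9 and 38.5 in SIN3A/3B-DKO1 while it was 41.3 and 50.5 in SIN3A/3B-DKO2, and MLL1-KO1 held 45.8 and 44.8 where MLL1-KO2 held 43.8 and 42.2. It was not called in any line, and SAP30-KO1 was the only line whose range overlapped with parental. Its lowest log2 fold change was -0.43 in SIN3A/3B-DKO1 (standard error 0.08, adjusted p = 6.21e-04 from limma). In SIN3A/3B-DKO2, RB1 and RBL1 were both higher in replicate 2 than in replicate 1, and the 2 libraries of this line differed most in reads across genes, their chi-square divided by its degrees of freedom being 7.66 against 1.46 to 3.65 in the other conditions.

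RBL2, the remaining pocket protein gene, was added from the list of DREAM complex genes. RBL2 encodes p130, which joins E2F4 and the MuvB core in resting cells as the DREAM repressor, and lies on chromosome 16 (chr16:53467889-53525560, plus strand). Parental libraries held 36.3 and 36.8 TPM of RBL2 RNA, SAP30-KO1 held 21.2 and 20.9, and SAP30-KO2 19.9 and 21.9. The level was 24.0 and 23.0 in SIN3A/3B-DKO1 while it was 23.1 and 25.3 in SIN3A/3B-DKO2, and MLL1-KO1 held 16.0 and 17.4 where MLL1-KO2 held 21.2 and 23.0. RBL2 fell in each of the 6 lines, its log2 fold changes lying between -1.11 and -0.59 (largest adjusted p = 4.63e-05 from limma). Its neighbours had medians from -0.55 to -0.34, and with these subtracted it was called in 0 lines. It was then at -0.41, -0.41, -0.20, -0.17, -0.58, and -0.19 in the 6 lines (adjusted p between 5.29e-06 and 0.0297 from limma). The value in MLL1-KO1 fell just short of 1.5-fold.

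**Figure D3:**
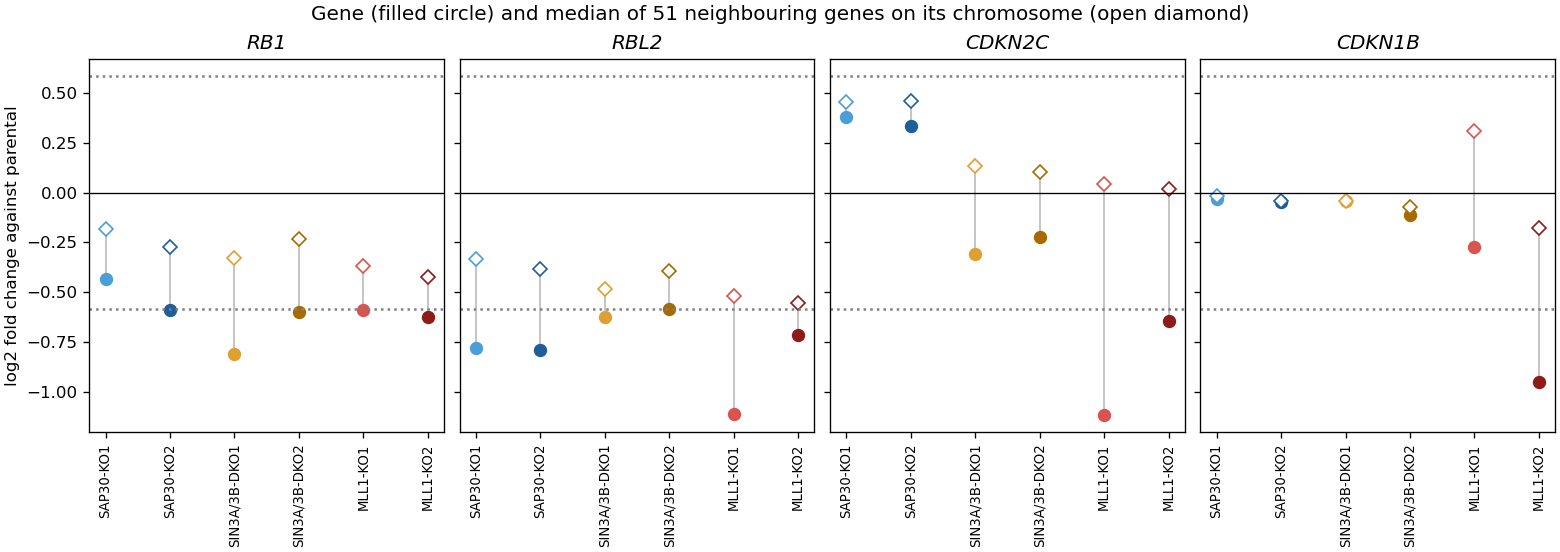
Log2 fold change against parental (vertical axis) of RB1, RBL2, CDKN2C, and CDKN1B (filled circles) beside the median of their 51 neighbouring genes on the chromosome (open diamonds) in the 6 edited lines. Dotted lines mark 1.5-fold. For RB1 and RBL2 the diamonds lay below 0 in all 6 lines, and for CDKN2C they lay at 0.46 in both SAP30-KO lines.

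The lines of the same genotype differed most for MLL1. MLL1-KO1 and MLL1-KO2 differed in CDKN1A by 0.76, in CDKN1C by 0.80, and in CDKN1B by 0.68 on the log2 scale, with CDKN1A and CDKN1C higher and CDKN1B lower in MLL1-KO2 (adjusted p = 5.88e-07, 0.00237, and 1.46e-05 from limma). These 3 of 7 genes were called where 10.4% of all genes were called. CDKN2C had its lower level in MLL1-KO1, at a difference of -0.47 (adjusted p = 2.33e-06 from limma), short of 1.5-fold. With the neighbouring genes subtracted, CDKN1A and CDKN1C still differed between the lines, by 0.67 and 0.69, whereas the CDKN1B difference narrowed to 0.28 (adjusted p = 0.00486 from limma) and was not called. The 3 Cip/Kip genes thus lay further from parental in MLL1-KO2, and CDKN2C in MLL1-KO1. Between SAP30-KO1 and SAP30-KO2 and between SIN3A/3B-DKO1 and SIN3A/3B-DKO2, 0 of the 7 genes were called, against 0.148% and 2.23% of all genes. At an adjusted p under 0.05 with no fold minimum, the counts were 0 and 1, the latter being CDKN1A with a difference of 0.40.

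Between genotypes, MLL1-KO differed from SAP30-KO and from SIN3A/3B-DKO in the same 3 genes, CDKN1A and CDKN1C higher and CDKN2C lower, where 19.8% and 19.9% of all genes were called. CDKN2C was lower by 1.23 and 0.61 on the log2 scale (adjusted p = 1.44e-11 and 2.67e-09 from limma), and the latter fell short of 1.5-fold with the neighbours subtracted (-0.52) and under quantile (-0.54) or median-ratio scaling (-0.53). CDKN1B differed by -0.57 and -0.54, short of 1.5-fold, and with the neighbours subtracted it was called at -0.72 and -0.70.

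Genes that act with these inhibitors were counted from lists of pathway members. In the 6 lines, in the order used above, 7.86%, 8.12%, 8.66%, 7.56%, 16.3%, and 14.9% of all genes tested were lower and 7.8%, 7.44%, 7.76%, 6%, 6.89%, and 10.2% higher, and since each list has few members, the counts below are given as a description. Of 13 G1 and S phase cyclins and CDKs tested, 1, 1, 2, 1, 0, and 2 were lower in the 6 lines, and 1 was higher, CCND1 in MLL1-KO2. CCND1 encodes cyclin D1, the partner of CDK4 and CDK6 that INK4 proteins compete with. Its RNA was at 695 and 661 TPM in parental, and MLL1-KO1 held 999 and 973 where MLL1-KO2 held 1201 and 1187. The log2 fold changes were 0.54 and 0.82 in the MLL1-KO lines (adjusted p = 1.5e-06 and 4.74e-08 from limma) and between -0.41 and -0.26 in the other 4. CCND2, for cyclin D2, was lower in both SAP30-KO lines, both SIN3A/3B-DKO lines, and MLL1-KO2. It went from 1.60 and 1.84 TPM in parental to at most 3 reads per library in SAP30-KO1, at least 27.9-fold lower with a floor of 3 reads per library, and to at most 1 read in MLL1-KO2, at least 26.1-fold lower. In MLL1-KO1 it was 1.30 and 1.24 TPM and was not called. CDK4 RNA had log2 fold changes of 0.05 to 0.49, highest in MLL1-KO2, and CDK6 RNA of -0.55 to -0.33, and neither was called in any line.

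Of the 10 E2F and DP factors, 2 were lower in each MLL1-KO line and 0 were called in the other lines, where the share of all genes lower is smaller as well. E2F5, a repressive E2F that pairs with p130 and p107, was lower by 0.99 in both MLL1-KO lines, and E2F8, an atypical repressor, by 0.63 and 0.70. In the DREAM and MuvB list of 9, the counts lower were 2, 2, 2, 1, 1, and 2 and those higher 1, 0, 1, 0, 0, and 0 in the 6 lines. RBL2 was in each of the counts lower. MYBL2, encoding B-MYB, a cell cycle activator that joins MuvB, fell by 0.93 and 0.82 in the SAP30-KO lines, from 119 and 114 TPM in parental to between 58.7 and 66.0, and by 0.90 in SIN3A/3B-DKO1 and 1.75 in MLL1-KO2. Of the 18 E2F target genes of S phase and mitosis, 0, 0, 2, 1, 1, and 3 were lower and 0 higher, and their median log2 fold change lay between -0.23 and 0.01. TOP2A, the DNA topoisomerase of dividing cells, was lower in both MLL1-KO lines, by 0.67 and 0.93, with 225 to 283 TPM against 445 and 434 in parental, and in SIN3A/3B-DKO1, by 0.79. MKI67, the proliferation marker, had log2 fold changes between -0.51 and -0.03 and was not called in any line.

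Of 9 ubiquitin ligase parts that act on Cip/Kip proteins, 1 was lower and 1 higher in each SAP30-KO line, 1 was higher in SIN3A/3B-DKO2, and 0 were called in the other 3 lines. DDB1, the adaptor of the CUL4 ligase that degrades p21 in S phase, was lower by 0.73 and 0.68 in the SAP30-KO lines, while CUL4B, a ligase scaffold, was higher by 0.78 and 0.70, and by 0.59 in SIN3A/3B-DKO2. DDB1 was between 211 and 221 TPM in SAP30-KO and between 315 and 352 in all other libraries. For DDB1 and CUL4B, values with the neighbouring genes subtracted are not given here, so a shift shared with their neighbours cannot be seen.

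Of 19 tested genes for factors known to act on CDK inhibitor genes, 1, 0, 1, 1, 3, and 2 were lower and 1, 2, 3, 2, 1, and 2 higher in the 6 lines. FOXO4, a forkhead factor that can activate CDKN1B, was higher in all 6 lines, with log2 fold changes from 0.61 in SIN3A/3B-DKO2 to 1.32 in MLL1-KO2. SMAD3, which carries the TGF-beta signal to CDKN1A, was lower in both MLL1-KO lines, by 0.78 and 1.27, at 41.9, 41.0, 29.4, and 29.4 TPM against 72.2 and 70.7 in parental. TP73, a transcription factor that can activate CDKN1A, was lower by 0.86 in SAP30-KO1, by 1.49 and 1.51 in SIN3A/3B-DKO, and by 1.49 and 0.84 in MLL1-KO.

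Of 7 genes listed beside CDKN2A and CDKN2B on chromosome arm 9p, KLHL9 was analysed, and it was listed at 0 with 0 reads in all 14 libraries, and MTAP was not analysed here.

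**Figure D4:**
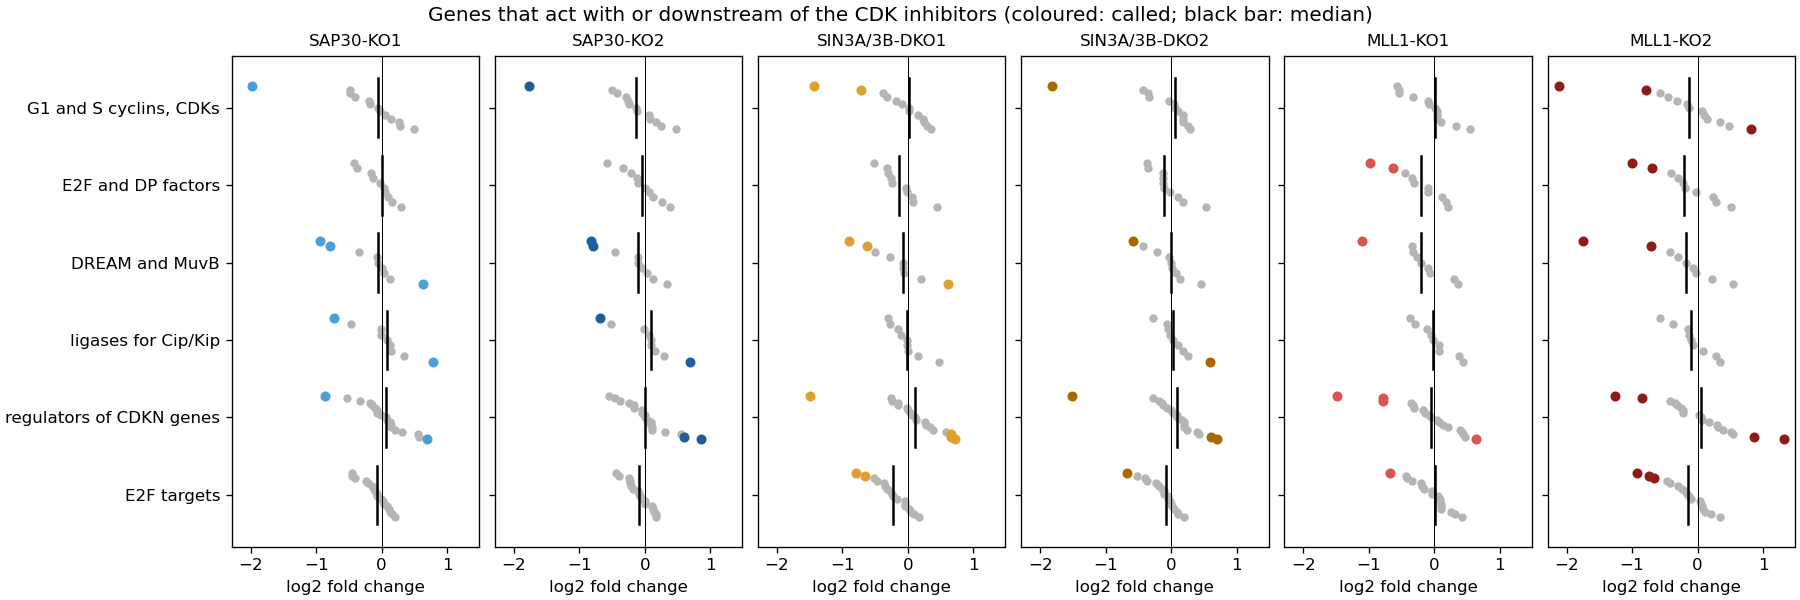
Log2 fold change against parental (horizontal axis) of each gene of 6 pathway lists (rows) in the 6 edited lines (panels), with 1 point per gene tested. Coloured points are genes called, grey points genes not called, and black bars the medians. Most points of every list were grey, and in the cyclin and CDK row the point farthest to the left was CCND2 in 5 of the 6 panels.

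The summed level of luminal cell markers was lower in the MLL1-KO lines than in parental. The 10 luminal markers summed to between 591 and 1012 TPM in the MLL1-KO libraries, against 1634 and 1688 in parental. Most of this sum came from KRT18, KRT19, and KRT8, with parental means of 761, 438, and 415 TPM. GATA3 ran from 8.16 to 17.3 TPM over all libraries, with a parental mean of 11.9, and ESR1, PGR, and FOXA1 were at most 0.191, 0.139, and 0.144 TPM in any library. Sums of the other edited lines are not given here, so the lower sum is not shown to be particular to MLL1-KO. The 4 fibroblast markers summed to between 8.28 and 13.5 TPM in MLL1-KO and to 5.03 and 5.05 in parental. This sum was mostly COL1A1, which ran from 4.15 to 13.2 TPM over the 14 libraries. COL1A2, DCN, and LUM were at 0.368, 0.0555, and 1.05 TPM at most, so the sum does not show a rise of fibroblast markers as a set. The part of these markers in the CDK inhibitor results was not tested. In such bulk samples, fewer cells that express a gene and less RNA of it per cell cannot be told apart.

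The genes whose log2(TPM + 0.5) followed each called gene most closely over the 14 libraries are given as a description, since the libraries of a line are not independent. CDKN1A was followed by DUSP10 (Pearson's r = 0.981), MMP14 (0.981), and AGPAT9 (0.981), and CDKN1B by RPH3AL (0.981), LIPG (0.974), and AGAP1 (0.973). CDKN1C was followed by CCND1 (0.990), PLXNA2 (0.990), and FERMT1 (0.988). MMP14 went from a mean of 421 TPM in parental to 940 and 1447 in MLL1-KO1 and MLL1-KO2, and FERMT1 from 17.2 to 64.5 and 162. LIPG went from 13.1 to 7.23 and 0.954 TPM. CDKN2C was followed by ZFP14 (0.991), PLAC8 (0.983), and KIAA1147 (0.981), and RB1 by C8orf59 (0.981), NUFIP2 (0.978), and PDS5B (0.974).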

How the data were processed

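The mRNA of 14 libraries, 2 from each of 7 conditions, had been sequenced by the authors, and the submitters' processing notes name FastQC 0.11.2, TopHat, featureCounts, and hg19. The annotation and strand setting are not given in the sources used here. The deposited values, called RPKM by the authors, added up to 1000000 in each library and were used as TPM, which the authors had made from read counts per gene. Whole reads could be recovered for 100.0% of the 18519 genes above 0 (tolerance 0.02 reads), giving 18415036 to 23162682 reads per library. 28 gene names had been turned into dates.

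Genes at 1 TPM or more in at least 2 libraries were fitted as log2(TPM + 0.5) with limma 3.58.1 in R 4.3.3, with a mean for each of the 7 conditions and a trended prior (7 residual and 3.6 prior degrees of freedom). P-values were adjusted by Benjamini-Hochberg over 13540 genes. Results on the deposited TPM were recomputed under 24 alternatives, among them voom on the recovered reads. Another subtracted a running median of 51 genes along the chromosome, the gene itself among them, which 12924 genes had. It was taken in each library, on log2 levels centred on the mean of each gene, before the fit. The neighbour medians printed are running medians of the fold changes instead. The script was tested on simulated data. Figures were drawn with matplotlib 3.10.9.

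The genes and all lists were chosen with earlier results of these data known. All 7 genes analysed were named with their values, and from each pathway list reported up to 3 genes with the largest mean change among those called the same way in both lines of a genotype, together with RBL2, CCND1, CDK4, and CDK6. Some further listed genes are not reported here. MKI67 was added after its values were seen. Direct neighbours of the 7 genes were named where their neighbouring genes had a median beyond 0.3 in any line. For each of the 5 genes called in any line, the 3 genes with the highest Pearson correlation over the 14 libraries were named.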

Additional observations from a re-analysis of the deposited data

Results flagged for a closer look

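MLL1-KO1 and MLL1-KO2 differed by a direct test in all 3 Cip/Kip inhibitor genes. MLL1-KO1 minus MLL1-KO2 was -0.76 for CDKN1A, -0.80 for CDKN1C, and 0.68 for CDKN1B on the log2 scale. Of all genes tested, 10.4% were called between these lines. With neighbouring genes subtracted, the differences were -0.67, -0.69, and 0.28, and that of CDKN1B was not called. The means in MLL1-KO1 and MLL1-KO2 were 89.9 and 153 TPM for CDKN1A, 20.2 and 35.5 TPM for CDKN1C, and 46.1 and 28.7 TPM for CDKN1B. KMT2A RNA, listed as MLL, differed between these lines as well, being 17.4 and 15.8 TPM for KO1 but 25.7 and 27.7 for KO2, a difference of -0.67 on the log2 scale that became -0.15 (adjusted p = 0.409 from limma) with its neighbouring genes subtracted. Its part in the Cip/Kip differences was not tested. No group had enough libraries to look for single outlying ones.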

How the results depend on the processing

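Over the 24 alternatives, 961 of the 1008 values of the 7 genes against parental kept their direction and their side of the thresholds, 23 lost and 16 gained a call, and 8 turned direction, all of genes that were not called. Of these alternatives, 14 leave out 1 library each. Where that library belongs to none of the conditions compared, the log2 fold change cannot move. Many values in this and the following tallies were therefore bound to keep their direction and size. Within a genotype 491 of 504 values held, with 1 lost, 2 gained, and 10 turned. The same alternatives were applied to the differences between genotypes after seeing the data, and there 470 of 504 held, with 4 lost, 13 gained, and 17 turned. Only 2 libraries per condition limit the precision, CDKN1C rests on the fewest reads, and a total change in RNA cannot be seen in TPM.

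Without a fold minimum, by construction, 6904, 6997, 7589, 6714, 8188, and 8692 genes were called in the 6 lines in the order of the report, against 2120, 2108, 2224, 1837, 3143, and 3408, and 4, 4, 5, 5, 7, and 7 of the 7 genes. The count of the 7 was 0 in SAP30-KO1 with only the 4 libraries compared. It was 1 in SAP30-KO2 with a pseudocount of 1, and 1 in both SAP30-KO2 and SIN3A/3B-DKO2 with voom on recovered reads or with neighbouring genes subtracted. Over the alternatives that do not leave out a library in turn, its lowest value was 2 in SIN3A/3B-DKO1, 3 in MLL1-KO1, and 4 in MLL1-KO2. The cause was not tested. Leaving out each library in turn, it ranged from 0 to 1 in SAP30-KO1, from 1 to 2 in SAP30-KO2 and in SIN3A/3B-DKO2, from 3 to 4 in MLL1-KO1, and from 4 to 5 in MLL1-KO2, and was 3 throughout in SIN3A/3B-DKO1.

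Values that turned direction with neighbouring genes subtracted were those of CDKN2C in SAP30-KO1 (-0.0988) and SAP30-KO2 (-0.0747) and of CDKN1B in SAP30-KO2 (4e-04). The same holds between KO1 and KO2 of SAP30 for CDKN1B (-0.0747) and CDKN2C (-0.0241), and between the SIN3A/3B-DKO lines for CDKN2D (-0.0032). The difference of SIN3A/3B-DKO from SAP30-KO turned for CDKN1C with quantile normalization (0.0631), median-ratio scaling (0.01), voom (0.0136), and neighbours subtracted (0.0347), and for CDKN2D with quantile normalization (-0.0131). That of MLL1-KO from SAP30-KO turned for RB1 with median-ratio scaling (0.0086) and neighbours subtracted (0.0533).

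Leaving out each library, CDKN1B ranged from -0.082 to 0.0208 in SAP30-KO1, from -0.1266 to 0.0307 in SAP30-KO2, and from -0.0931 to 0.0097 in SIN3A/3B-DKO1. Between the SAP30-KO lines, CDKN1B ranged from -0.0613 to 0.096, CDKN1C from -0.5828 to 0.0744, and CDKN2D from -0.1019 to 0.0231. CDKN2D ranged from -0.0541 to 0.1464 between the SIN3A/3B-DKO lines, and RB1 from -0.0099 to 0.0729 between the MLL1-KO lines. For SIN3A/3B-DKO against SAP30-KO the ranges were -0.0769 to 0.0017 for CDKN1B, -0.1675 to 0.1611 for CDKN1C, and -0.0498 to 0.0504 for CDKN2D, and for MLL1-KO against SIN3A/3B-DKO -0.0031 to 0.1401 for RBL1.

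With the replicate number as a block, 2119, 2114, 2230, 1840, 3141, and 3410 genes were called, and no call of the 7 genes changed. Deviations of libraries with the same number correlated at 0.01 on average over 21 pairs of conditions (-0.07 to 0.08), so the number marks no pairing.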
